A study of Bos taurus with 30 samples.

Results

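miR-205, miR-31 and miR-184 are miRNAs best known from surface epithelia such as epidermis, oral mucosa and cornea, and they were followed here in the anterior pituitary of young bull calves. The members were the rows of the deposited table whose names are miR-205, miR-203, miR-31 or miR-184, with or without a letter or an arm. This gave 3 of the 1030 miRNAs in the table, bta-miR-205, bta-miR-31 and bta-miR-184, named without the bovine prefix from here on. No row name matched miR-203, which is not analysed here. miR-205 was selected on its difference between diets, known from earlier results of these data, so that contrast is given for it as a description with no test. miR-31 and miR-184 were chosen by name.

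Small RNA was sequenced from anterior pituitary tissue of 30 bull calves of the Holstein-Friesian breed, with 1 library per calf. The HI group (n = 15) was offered 1.5 kg of milk replacer in 10 litres per day with ad libitum concentrate, and the MOD group (n = 15) 0.5 kg in 4 litres with 0.5 kg of concentrate, from 2 weeks of age until sampling at 12 weeks. Breed and sex were shared by all calves. Assignment to diet had been blocked by farm of origin, sire, age and bodyweight, and the labels do not give these blocks. The RNA came from pieces of the whole lobe, in which fewer cells of a type and less RNA per cell cannot be told apart. Between 6650492 and 11086524 reads per library were placed on miRNAs (median 8672424 in HI and 8856734 in MOD libraries), and levels are given as TMM-normalized CPM (counts per 1e+06 reads), where 3 reads were worth 0.266 to 0.419 CPM. In earlier results of these data the 9 libraries with the highest calf label numbers (5 HI and 4 MOD calves) stood apart from the other 21 (10 HI and 11 MOD calves), so values are also given within these sets. The last 4 digits of the labels fall into 4 ranges, and neither the sets nor the ranges are said by the labels to be batches.

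A mature miRNA guides Argonaute proteins to messenger RNAs that pair with its seed, the bases near its 5′ end, and lowers their output. miR-205 is abundant in the basal layer of stratified epithelia and, together with the miR-200 family, represses ZEB1 and ZEB2, the transcription factors that drive epithelial cells towards a mesenchymal state. miR-31 is expressed in hair follicles and rises in proliferating epidermis, and miR-184 is the most abundant miRNA of the corneal epithelium. The hormone-secreting lobe of the pituitary itself develops from oral ectoderm through Rathke's pouch, and the long noncoding RNA of the human and mouse miR-205 locus has been linked to growth hormone and prolactin production in the pituitary.

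The miRNAs were present at very different levels. miR-31 had a mean of 422 CPM over the 30 calves and ranked 109 of 1030 miRNAs, miR-205 had a mean of 304 CPM and ranked 123, and miR-184 had a mean of 6.45 CPM and ranked 319. Reads per library ran from 2376 to 5123 for miR-31, from 1085 to 5846 for miR-205 and from 31 to 124 for miR-184, so all of the 3 were above the limit of 3 reads in every calf. Every one of these read counts was within 0.01 reads of a whole number. All of the 3 passed the filter on low counts, under which 419 miRNAs with 99.99% of the reads were tested. CPM of different miRNAs are not corrected for how readily each sequence enters a library, so the order of levels is that of reads. By the RefSeq gene table (ARS-UCD2.0), used here for neighbours only, MIR205 lies next to the noncoding gene LOC104974529, MIR31 lies within the span of the interferon gene IFNE, and MIR184 lies within the noncoding gene LOC112443131, so that the 3 come from separate loci.

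Expression of miR-205 ran from 113 to 402 CPM in HI calves, with a median of 205 CPM, and from 192 to 749 CPM in MOD calves, with a median of 338 CPM. The ranges overlapped, although 6 HI calves lay below the lowest MOD calf and 5 MOD calves lay above the highest HI calf. The mean HI level was 235 ± 91.7 CPM and the mean MOD level 373 ± 149 CPM (SD, n = 15 each). The HI level was 0.627 of the MOD level on the log2(CPM + 1) scale, with a 95% interval from 0.479 to 0.819 from limma, or a log2 fold change of -0.67 (standard error 0.19). It was the lowest log2 fold change of the 419 miRNAs, of which the middle 90% lay between -0.17 and 0.28 around a median of 0.02. At FDR < 0.1 and a fold change above 1.5, 2 of the 419 miRNAs (0.477%) passed, miR-205 being 1 of them. As its choice rested on that contrast, nothing is read from this.

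**Figure D1:**
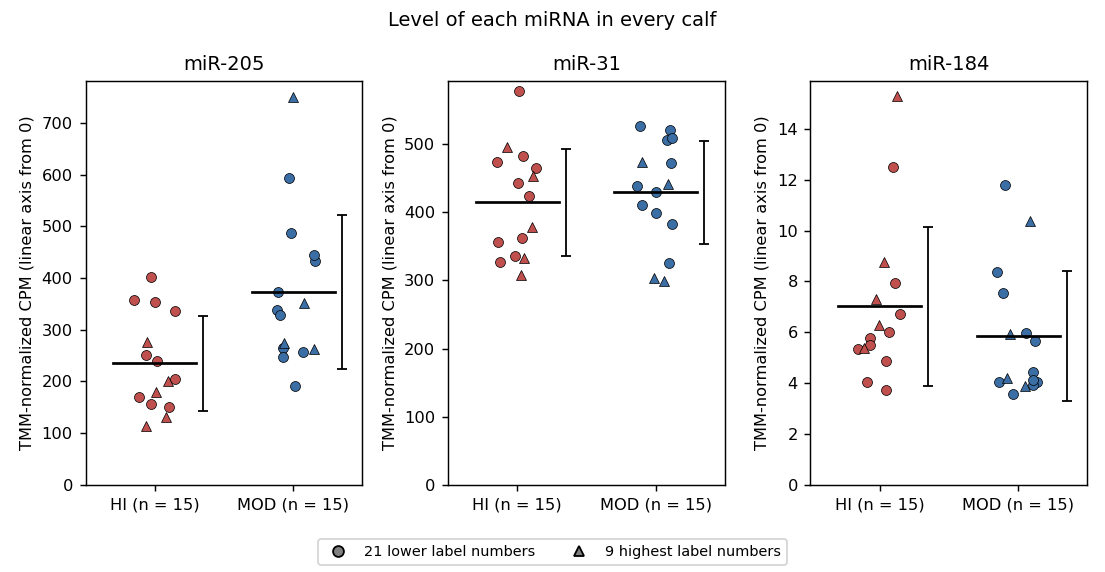
Level of miR-205, miR-31 and miR-184 in each calf, in TMM-normalized CPM on linear axes that start at 0, by diet, with circles for the 21 libraries of lower and triangles for the 9 of highest label number. Horizontal lines are means and the bars beside them are the SD (n = 15); for miR-205 the lowest HI calf lies at 113 CPM and the highest MOD calf at 749 CPM, whereas the diets overlap almost fully for miR-31.

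The values of miR-205 within each set of libraries come from the same calves on which it was chosen, so they are a description. In the 9 libraries with the highest label numbers the HI calves had 113, 131, 179, 200 and 276 CPM and the MOD calves 263, 274, 352 and 749 CPM. Only the highest HI calf of that set overlapped the MOD calves. In the other 21 libraries HI calves ranged from 150 to 402 CPM (median 245) and MOD calves from 192 to 593 CPM (median 338), with a wider overlap. The log2 difference was -1.11 (standard error 0.42) in the 9 and -0.47 (standard error 0.22) in the 21. As miR-205 was chosen for its diet difference, no test of a change between the sets is given for it. For miR-31 the diet difference changed by 0.14 between the sets (FDR = 0.875, limma) and for miR-184 by 0.33 (FDR = 0.875, limma). None of the 419 miRNAs (0%) passed FDR < 0.1 in that limma comparison, and 21 had an unadjusted p under 0.05. Within the label range that held 8 calves of each diet the log2 difference was -0.60 (standard error 0.32).

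Ratios within a library do not depend on how libraries are scaled. They carry the same diet difference for which miR-205 was chosen, so they are a description and no separate support for it. The ratio of miR-205 to miR-31 had a median of 0.483 in HI calves (0.300 to 1.03) and of 0.869 in MOD calves (0.407 to 1.58), a log2 difference of -0.63 (standard error 0.23). A total of 7 HI calves lay below the lowest MOD calf in this ratio and 6 MOD calves above the highest HI calf. Reads of miR-31 exceeded those of miR-205 in 13 of the 15 HI calves and in 9 of the 15 MOD calves. Set against the summed miR-200 family, miR-205 stood at a median of 1.00% in HI calves (0.605% to 2.39%) and of 1.68% in MOD calves (0.957% to 3.32%), a log2 difference of -0.67 (standard error 0.21).

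Expression of miR-31 did not pass FDR < 0.1 between the diets. It ran from 309 to 578 CPM in HI calves, with a median of 424 CPM, and from 299 to 526 CPM in MOD calves, with a median of 438 CPM. The diets overlapped almost fully, with 1 HI calf above the highest MOD calf and 2 MOD calves below the lowest HI calf. Means were 414 ± 78.3 CPM and 429 ± 76.0 CPM (SD, n = 15 each). The log2 fold change was -0.05, with a 95% interval from -0.25 to 0.14 (FDR = 0.920, limma), which leaves room for a HI level between 0.843 and 1.10 of the MOD level. Its sign turned positive, 0.01, when libraries were scaled to total reads. In the 9 libraries with the highest label numbers the difference was 0.06 (standard error 0.22) and in the other 21 it was -0.08 (standard error 0.11).

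Expression of miR-184 did not pass FDR < 0.1 either. It ran from 3.72 to 15.3 CPM in HI calves, with a median of 6.0 CPM, and from 3.59 to 11.8 CPM in MOD calves, with a median of 4.44 CPM. The diets overlapped over most of their range, with 2 HI calves above the highest MOD calf, 1 MOD calf below the lowest HI calf and with the MOD median exceeded by 13 of the 15 HI calves. Means were 7.03 ± 3.14 CPM and 5.87 ± 2.56 CPM (SD, n = 15 each). The log2 fold change was 0.22, with a 95% interval from -0.12 to 0.57 (FDR = 0.721, limma), a HI level between 0.918 and 1.48 of the MOD level. In the 9 libraries with the highest label numbers the difference was 0.44 (standard error 0.36), and in the other 21 it was 0.11 (standard error 0.20).

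The median level of miR-184 was highest in 1 of the 4 label ranges, an observation made after its values were seen and not tested. The range with the fewest calves held 3, which had 8.38, 12.5 and 15.3 CPM of miR-184 and ranked 6, 2 and 1 of the 30. These were 1 MOD and 2 HI calves, and in the same order they had 399, 335 and 309 CPM of miR-31. In the range with 16 calves miR-184 ran from 3.72 to 11.8 CPM around a median of 5.10 CPM. With the label range as a block the log2 fold change between diets was 0.12 (FDR = 0.906, limma), and within the range of 16 calves alone it was -0.03 (standard error 0.23). Without HI replicate 13, the calf with 15.3 CPM, the log2 fold change over all other calves was 0.14.

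The miR-200 family, which shares the targets ZEB1 and ZEB2 with miR-205 and marks epithelial cells in general, was far more abundant. Its 5 members were all tested, and none passed FDR < 0.1 in limma in either direction, against 3.58% of all miRNAs tested; the lowest unadjusted p was 0.0558, for miR-200c. Their log2 fold changes ran from -0.11 for miR-200c to 0.09 for miR-429, with a median of -0.005, beside 0.02 for all 419. miR-141 had a mean of 15042 CPM, 49.5 times that of miR-205, and a log2 fold change of -0.005 (95% interval -0.11 to 0.10, FDR = 0.984, limma). miR-200c, at 1791 ± 192 CPM on the HI and 1924 ± 176 CPM on the MOD diet (SD, n = 15 each), had the lowest FDR of the family (0.410, limma), and its log2 fold change of -0.11 had a 95% interval from -0.21 to 0.003.

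**Figure D2:**
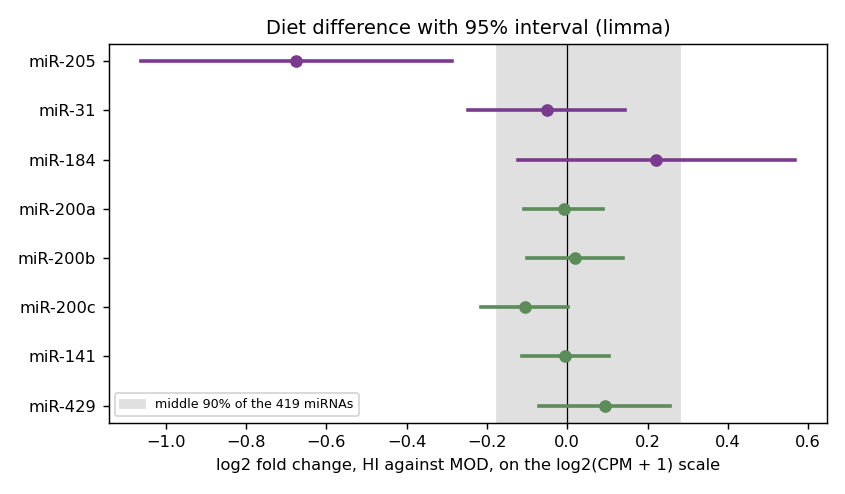
Log2 fold change of HI against MOD calves on the log2(CPM + 1) scale (horizontal axis) with its 95% interval from limma, for miR-205, miR-31 and miR-184 (purple) and the 5 members of the miR-200 family (green). The grey band holds the middle 90% of the 419 miRNAs tested, from -0.17 to 0.28; the interval of miR-205, chosen with this difference known, lies to the left of that band.

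Calves on the same diet differed far more in miR-205 than in most miRNAs of its level. Its standard deviation within diet was 0.55 on the log2(CPM + 1) scale, against a median of 0.21 for the 54 tested miRNAs with a mean within 2 times of its own, of which 51 varied less. Over the 30 calves the highest level was 6.62 times the lowest, and the coefficient of variation within diet was 39.1% in HI and 39.9% in MOD calves, whereas counting error alone gave 2.13%. The relative spread of miR-205 was alike on both diets, at different means.

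The spread of miR-184 was also wide for its level, and that of miR-31 was closer to the median. The within-diet standard deviation of miR-184 was 0.48, above 61 of the 68 miRNAs of similar level, and its coefficient of variation over all calves was 44.6% with a counting error of 14.4%. That of miR-31 was 0.27, above 36 of the 53 miRNAs of similar level, whose median was 0.22, and its coefficient of variation over all calves was 18.1% with a counting error of 1.69%. The highest miR-31 level was 1.93 times the lowest. The miR-200 family was steadier still, with within-diet standard deviations from 0.13 to 0.22.

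**Figure D3:**
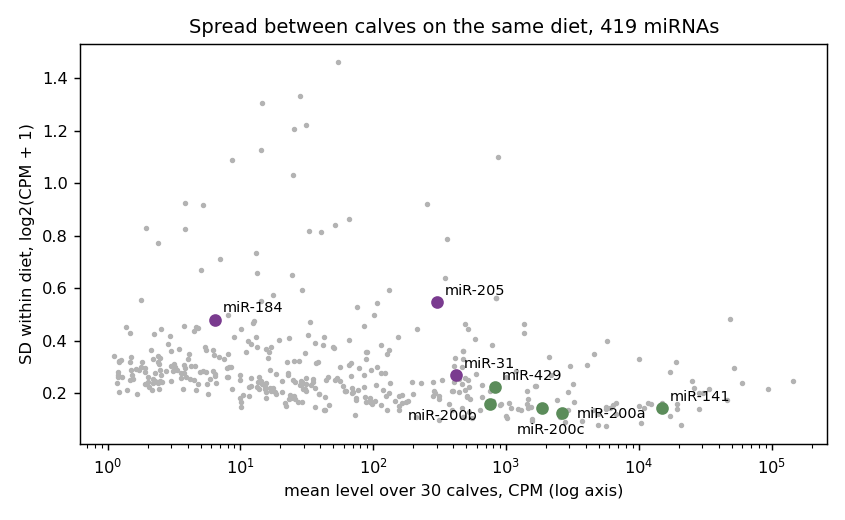
Standard deviation between calves on the same diet, in log2(CPM + 1) (vertical axis), against the mean level over the 30 calves in CPM on a log axis (horizontal), for the 419 miRNAs tested (grey), miR-205, miR-31 and miR-184 (purple) and the miR-200 family (green). miR-205 at 0.55 and miR-184 at 0.48 stand above most miRNAs of their level, and miR-31 at 0.27 lies nearer to the others.

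The miRNAs were next compared calf by calf, with the mean of each diet removed, to see whether these surface epithelium miRNAs rose and fell together. This was a family of 27 relations, 3 between members and 24 between a member and the mean log2 level of a marker list, tested by permuting calves within diet. Calves were shuffled across both sets of libraries, so a shift between the sets could enter the values over all 30. None of the 27 passed an adjusted p of 0.05, and 3 had an unadjusted p under 0.05 for Pearson's r. miR-205 and miR-31 gave r = -0.04 and rho = -0.12 (n = 30, permutation p = 0.838 and 0.538, adjusted 0.920 and 0.897). Without the 2 calves farthest from the median of miR-205 r was -0.13, and within the sets it was -0.28 in the 21 libraries and 0.29 in the 9.

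The pair of miR-205 and miR-184 gave r = 0.24 and rho = 0.12 (n = 30, permutation p = 0.213 and 0.516, adjusted 0.855 and 0.897). Without the 2 calves farthest from the median of miR-205 r was 0.20, and it was 0.19 in the 21 libraries and 0.72 in the 9. The pair of miR-31 and miR-184 gave r = -0.36 and rho = -0.25 (n = 30, permutation p = 0.0574 and 0.185, adjusted 0.387 and 0.897). Without the 2 calves farthest from the median of miR-31 r was -0.48, and it was -0.54 in the 21 libraries and 0.01 in the 9. In both pairs the 2 calves farthest from the median of miR-184, HI replicates 9 and 13, were kept when others were left out. They had 12.5 and 15.3 CPM of miR-184 and 335 and 309 CPM of miR-31, and r without them was not computed. The data thus did not show the 3 as a group that varies together, and they are called by their own names rather than as one set of epithelial markers.

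**Figure D4:**
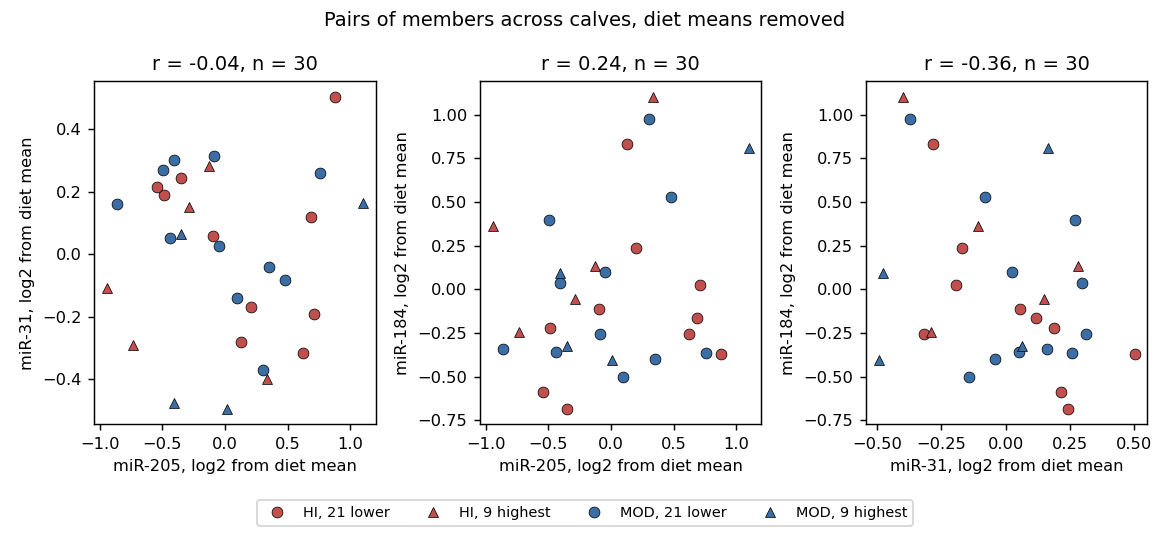
Each pair of miR-205, miR-31 and miR-184 across the 30 calves, as the difference of log2(CPM + 1) from the mean of the calf's own diet, with HI in red, MOD in blue, circles for the 21 libraries of lower and triangles for the 9 of highest label number. The points show no common rise, with r = -0.04, 0.24 and -0.36 from left to right.

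Against the marker lists of other cell types, the strongest relations were those of miR-205. With the pituitary endocrine list (miR-375, miR-7, miR-182, miR-183 and miR-96) it gave r = -0.42 and rho = -0.42 (n = 30, permutation p = 0.0239 and 0.0236, adjusted 0.323 and 0.636). The members differed in this, with r = -0.47 for miR-182, -0.37 for miR-375, -0.31 for miR-96, -0.17 for miR-183 and -0.03 for miR-7. With the diet means left in, r for the list was -0.15 (permutation, adjusted p = 0.981). In the 21 libraries of lower label number r was -0.69 (permutation p = 0.00069, adjusted 0.0186), and in the 9 it was -0.09 (permutation p = 0.816). Without the calves farthest from the median of miR-205, HI replicate 15 with 113 CPM and MOD replicate 8 with 749 CPM, r was -0.61 (permutation, adjusted p = 0.0154). The relation therefore passed the threshold without these 2 calves or without the 9 libraries, and not in all 30, and the difference between the sets was not tested. The summed list had a median of 176443 CPM in HI calves (140846 to 237704) and 191360 CPM in MOD calves (165290 to 235872), and as it takes a large share of every library, the part of composition in this relation was not tested. Of its 5 members none was at 0. None passed FDR < 0.1 between diets in limma, against 3.58% of all miRNAs tested, so nothing is read from this count. All 5 had a negative log2 fold change, with a median of -0.13, beside 0.02 for all 419. However, miR-182, miR-183 and miR-96 belong to a single cluster, so they are not separate markers in this count or in the list mean.

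With the red blood cell list (miR-451, miR-144 and miR-486) miR-205 gave r = 0.42 and rho = 0.37 (n = 30, permutation p = 0.0235 and 0.0510, adjusted 0.323 and 0.688). By member, r was 0.40 for miR-486, 0.36 for miR-144 and 0.25 for miR-451. With the diet means left in, r for the list was 0.14 (permutation, adjusted p = 0.981). Without the 2 calves farthest from the median of miR-205 r was 0.43, and it was 0.50 in the 21 libraries and -0.36 in the 9. The sum of the list, nearly all of it miR-486, had a median of 17406 CPM in HI calves (10578 to 24489) and 20588 CPM in MOD calves (15557 to 27422), with none of the 3 at 0. Within it miR-486, which is plentiful in erythrocytes, had a log2 fold change of -0.27 (FDR = 0.274, limma), whereas miR-451 and miR-144 had 0.55 (FDR = 0.190, limma) and 0.46 (FDR = 0.115, limma). With miR-486 as a covariate the log2 fold change of miR-205 between diets was -0.49 (standard error 0.19) in place of -0.67. No fit used miR-451 or miR-144, whose log2 fold changes went the other way from that of miR-486. The covariate thus stands for miR-486 alone, and the part of red blood cells in the difference was not tested.

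miR-31 and the endocrine list gave r = -0.38 and rho = -0.25 (n = 30, permutation p = 0.0416 and 0.196, adjusted 0.374 and 0.897), but r was -0.14 without the 2 calves farthest from the median of miR-31, so this relation rests on those calves. Within the sets r was -0.14 in the 21 libraries and -0.51 in the 9. For miR-184 the relations to the 8 lists ran from r = -0.15 with the endocrine list to 0.24 with the white blood cell list. With the miR-200 family, r was -0.05 for miR-205, -0.19 for miR-31 and 0.22 for miR-184. The lists of stromal and smooth muscle, endothelial, white blood cell, striated muscle and neural miRNAs gave r between -0.10 and 0.24 with the 3 members. None of the tested miRNAs of these lists passed FDR < 0.1 between diets in limma, against 3.58% of all miRNAs tested, and nothing is read from this. All members of the first 3 of these lists were tested, but 4 of 7 striated muscle rows and 5 of 11 neural rows, the others being too low, although no row of any list was at 0 in all calves.

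**Figure D5:**
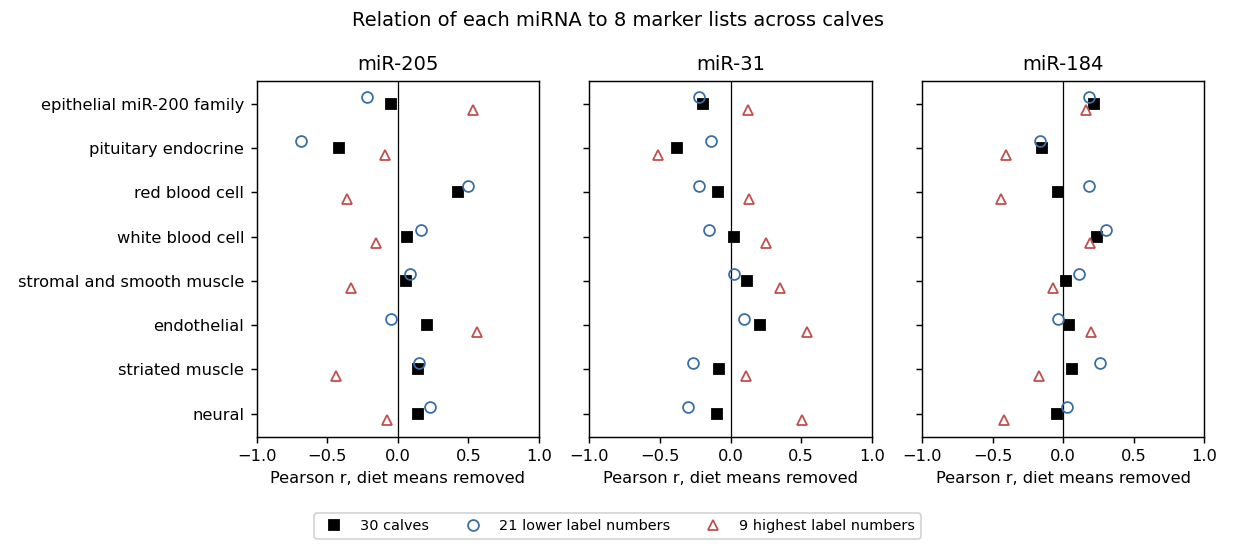
Pearson's r across calves, with diet means removed (horizontal axis, from -1 to 1), between each of miR-205, miR-31 and miR-184 and the mean log2 level of 8 marker lists, over the 30 calves (squares), the 21 libraries of lower label number (circles) and the 9 of highest label number (triangles). For miR-205 and the endocrine list the values are -0.42, -0.69 and -0.09.

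The miRNAs most like miR-205 across calves were named by Pearson's r with diet means removed, among 299 tested miRNAs with a mean of at least 10 CPM, whose median r with miR-205 was 0.00. These values are a description. The most similar was miR-129-5p, a miRNA known from brain, with r = 0.64; miR-129 holds identical values and is the same measurement. It was followed by miR-193b with r = 0.56, miR-134, from the imprinted cluster that also holds miR-379, with 0.54 and miR-181d with 0.53. Each of these 4 had an r of at least 0.40 within HI calves alone and within MOD calves alone. As they were picked over these same calves, this is no separate support. Levels of miR-129-5p ran from 274 to 1534 CPM, and its log2 fold change between diets was -0.33 (standard error 0.20, FDR = 0.590, limma).

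The miRNAs most opposite to miR-205 were miR-186 with r = -0.49, miR-182 with -0.47 and miR-125a with -0.46. miR-182 is itself on the endocrine list, and its r with miR-205 was -0.73 in the 21 libraries and 0.10 in the 9. The r of miR-125a was -0.75 within HI calves and -0.14 within MOD calves. For miR-31 the most similar were miR-497 with r = 0.54, miR-181b with 0.54 and miR-138 with 0.52. For miR-184 they were miR-450a with 0.46, miR-424-5p with 0.44 and miR-424-3p with 0.44, which come from a single cluster on the X chromosome. These lists of most similar miRNAs hold only 5 or 3 names each from 299 or 300 candidates, so nothing is read from their sharing no name. miR-181d was on the list of miR-205 and miR-181b on that of miR-31.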

How the data were processed

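Small RNA libraries of 15 HI and 15 MOD calves were analysed, grouped by their labels. The authors trimmed adapters with Cutadapt, discarded reads outside the miRNA length range or of other RNA classes, and used miRDeep2 with miRBase and ARS-UCD1.2 for quantification. Values were deposited as a normalized signal, CPM divided by TMM factors. The value of 1 read was found from the spacing of low values: by library 94.8% to 97.3% of values up to 200 reads came out whole within 0.01 reads, and the step was recovered in 20 of 20 simulated libraries. Depth was 6650492 to 11086524 reads, and floors cover counting error only. No 2 libraries were copies (chi-square per degree of freedom at least 76.3).

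Diets were compared with limma 3.58.1 in R 4.3.3 (eBayes with trend) on log2(CPM + 1) of the 419 miRNAs passing edgeR 4.0.16 filterByExpr, with Benjamini-Hochberg adjustment, FDR < 0.1 and fold change > 1.5. A log2 fold change on this scale understates the change of low miRNAs. In simulated data for these 419, with 200 changed by a fold of 1.5, limma called 184 in the right direction and 7 unchanged ones. So many changed miRNAs make the adjustment more lenient than in these data, where 15 of 419 passed FDR < 0.1. The share called in the simulation therefore does not carry over to them. Run on recovered reads, edgeR's quasi-likelihood fit called 4 miRNAs past both thresholds. Correlations used log2(CPM + 1) less the diet means and two-sided permutation tests of 100000 resamples within diet, adjusted over the 27 relations. DESeq2 1.42.0 served as an alternative.

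The members, marker lists and tests were chosen with earlier results of these data known. Named miRNAs were the members, list members where a list is discussed, the 5 rows most similar and the 3 most opposite to miR-205, and the 3 most similar to each other member. RefSeq's ARS-UCD2.0 gene table gave neighbours only.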

Additional observations from a re-analysis of the deposited data

How the results depend on the processing

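miR-205 was chosen for its diet difference over these same calves, so its values here are a description and no separate support. Its log2 fold change was negative in each alternative, from -1.11 in the 9 libraries of highest label number alone to -0.47 in the other 21. It ran from -0.74 to -0.60 when 1 calf was left out. That of miR-31 ran from -0.09 to -0.02 when 1 calf was left out, and turned to 0.0117 on total reads and to 0.0616 in the 9 libraries. That of miR-184 ran from 0.11 in the 21 libraries to 0.44 in the 9, and from 0.14 (without HI replicate 13) to 0.29 (without MOD replicate 9) when 1 calf was left out. Within the label range of 16 calves the log2 difference of miR-184 was -0.03 (standard error 0.23). miR-31 and miR-184 did not pass FDR < 0.1 in any alternative. Past both thresholds (FDR < 0.1, fold change > 1.5) were 2 miRNAs, and this count was 4 with edgeR's quasi-likelihood test and with DESeq2's Wald test, 1 with upper quartile scaling (miR-205) and 1 in the 21 libraries (miR-10172-3p). It was 0 in limma with miR-486 as a covariate (41 at an unadjusted p under 0.05) and 0 in limma in the 9 libraries (26 at an unadjusted p under 0.05). Leaving out 1 calf gave 2 to 4, the 4 without HI replicate 13. None of the 27 relations across calves passed in all 30. A single relation, miR-205 with the endocrine list, passed in the 21 libraries and also without the 2 calves farthest from the median. Those 2 calves are among the 9 libraries outside the 21, so the 2 settings overlap. Fewer libraries were tested within the sets; elsewhere the cause was not tested. The calves had been assigned to diet in blocks, but the labels do not give the block, farm or sire of a calf. No analysis paired on these was therefore possible, and their part in the differences was not tested. Calf labels carry no replicate numbers, and those used here only name calves in accession order.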

Other observations

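A single MOD calf, replicate 8, had the highest miR-205 of the 30 (749 CPM) and the fourth highest miR-184 (10.4 CPM), with miR-31 at 473 CPM. The calf with the lowest miR-205, HI replicate 15 (113 CPM), ranked 5 of 30 for miR-184 (8.76 CPM). Both calves belong to the 9 libraries of highest label number, in which miR-205 spanned 113 to 749 CPM, against 150 to 593 CPM in the other 21.

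Within a library the ratio of miR-184 to the summed miR-200 family was 0.0275% at the median of HI calves and 0.0227% at that of MOD calves, a log2 difference of 0.27 (standard error 0.20), and that of miR-31 was 1.93% and 2.04%, a log2 difference of -0.04 (standard error 0.12). Neither ratio was tested.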
